A study of Sus scrofa with 4 samples.

Results

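The cell cycle and proliferation genes described here are 44 named genes that copy DNA, carry cells through division or control entry into the cycle. They were read in ovaries of pigs (Sus scrofa) with and without leptin overexpression. A member was a row of the deposited table of 22309 genes whose symbol equalled one of the 44 names. By this rule 35 names found a row: 11 genes of DNA replication, 14 of mitosis and 10 cyclins, cyclin-dependent kinases (CDKs), CDK inhibitors and the transcription factor E2F1. A further 8 names (RRM2, CDT1, MKI67, AURKA, BUB1B, NUSAP1, PTTG1 and CCNE1) found a row only through a gene identifier or the table's description, and these are described apart from the 35. CCNA2, cyclin A2, matched no row and was not analysed here. All 35 rows, and the other 8, passed the filter on low counts.

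Poly(A)-selected RNA was sequenced from 4 ovary samples taken in diestrus, the phase of the estrous cycle in which corpora lutea are active. The samples formed 2 groups of 2, WT and leptin overexpression. According to the series design, the overexpressing sows were second-generation offspring of crosses between male clones of 1 transgenic pig and Duroc/Landrace/Yorkshire sows, and carriers were picked by PCR, qPCR and immunoblotting. The promoter of the transgene, the age of the sows and the breeding of the controls were not given in the sources used here. Nothing in the labels states that samples of 1 group came from separate sows, so a p-value here covers no more than the spread among the sequenced samples, and that may be technical.

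Expected counts summed to 16493113 to 16797511 per library. Counts of LEP, which encodes leptin, were 0 and 3 in WT against 55 and 124 under leptin overexpression. WT replicate 1 stood apart from the other 3 libraries in composition. Its TMM factor, which corrects library size for composition, was 1.34 against 0.809 to 0.998, and mitochondrially encoded genes took 6.9% of its counts against 12.9% to 16.4%. Across tested genes, which are not independent replicates, WT replicate 2 correlated with leptin overexpression replicate 1 at Pearson's r = 0.941 and with WT replicate 1 at 0.917. Leptin overexpression replicate 2, with the lowest TMM factor, correlated with WT replicate 1 at 0.8565 and with WT replicate 2 at 0.892. Its correlation with leptin overexpression replicate 1 was 0.936, and that library correlated with WT replicate 1 at 0.890. Levels are given below as TMM-normalised CPM (counts scaled to a common library total) for comparisons of 1 gene across libraries, and as the deposited FPKM, which is scaled to transcript length and not by TMM, for comparisons between genes. A run of 4 values stands in the order WT replicate 1, WT replicate 2, leptin overexpression replicate 1, leptin overexpression replicate 2.

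A dividing cell copies its genome in S phase and separates the copies in mitosis. D-type and E-type cyclins bind CDKs to release E2F factors, which switch on the genes for replication. B-type cyclins with CDK1 then drive mitosis, and ubiquitin ligases end it by destroying cyclins. In the ovary, granulosa cells of growing follicles are a main dividing population, and they leave the cycle as they become luteal cells. In bulk tissue, fewer dividing cells and less RNA per cell cannot be told apart.

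None of the 35 members passed the test between the genotypes, which with 2 libraries per group does not show that they were equal. Adjusted p from edgeR's quasi-likelihood test, over all 13937 genes tested, ranged from 0.435 to 0.996 across the members. Of all tested genes 4, or 0.0287%, passed the threshold of 0.05. DESeq2 also called 0 of the 35 (lowest adjusted p 0.305), where it called 2.19% of its genes, and limma-voom called 0, where it called 0.00718%. At an unadjusted edgeR p under 0.05, 1 member was higher in leptin overexpression (TOP2A) and 0 were lower, beside 4.04% and 5.32% of all tested genes. The median log2 fold change (leptin overexpression minus WT) was -0.02 over the 35 members and -0.01 over all tested genes, with 18 members below 0 and 17 above.

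Both leptin overexpression libraries were above both WT libraries in 9 of the 35 members (25.7%), close to the 22.2% of all tested genes. Both were below in 2 (5.71%), where the share of all tested genes was 22.9%. For 23 members (65.7%) the gap between the WT libraries was wider than the gap between the group means, and this held for 47.3% of all tested genes. WT replicate 1 was the highest library for 14 members (40%), beside 28.5% of all tested genes. These counts differed by role, and the roles are taken in turn.

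**Figure D1:**
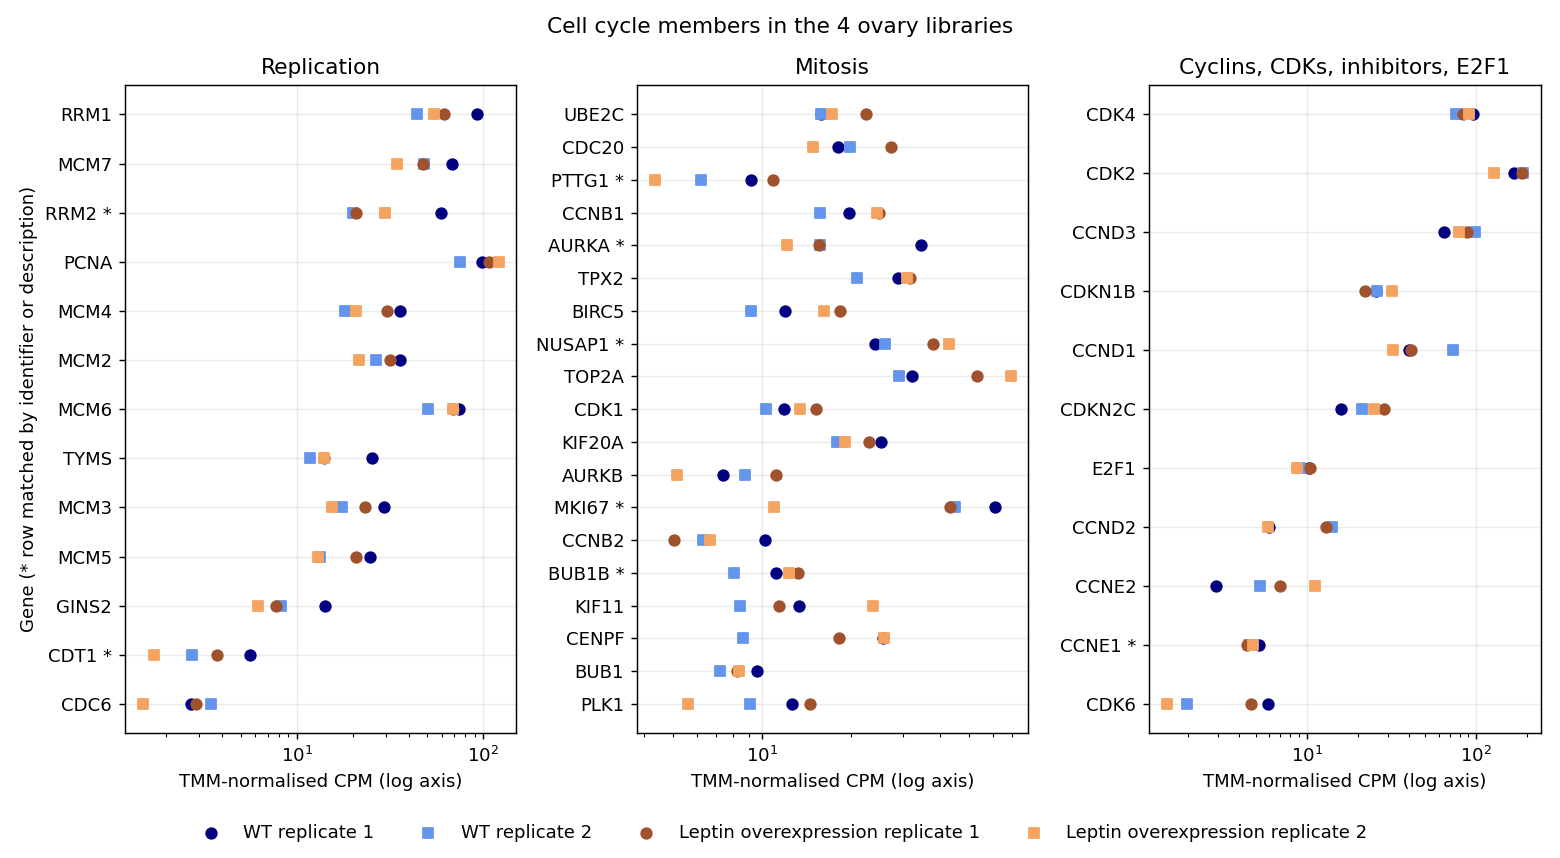
TMM-normalised CPM on a log axis for the 43 members with a row, 1 gene per line in order of mean FPKM within each role, with 1 point per library (circles for replicate 1, squares for replicate 2; blue for WT, brown and orange for leptin overexpression). WT replicate 1 lies farthest right for most replication genes, while TOP2A, NUSAP1 and BIRC5 have both leptin overexpression points to the right of both WT points.

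The 11 replication genes had their highest level in WT replicate 1 for 9 genes (81.8%), and the exceptions were PCNA and CDC6. RRM1 (ENSSSCG00000014791), the large subunit of the ribonucleotide reductase that makes deoxynucleotides, had the highest mean FPKM among them, at 36.8, 13.2, 17.2 and 13.5. In CPM it stood at 92.2, 44.3, 61.4 and 54.2, so 1 WT library was the highest and the other the lowest. Its log2 fold change was -0.24 (SE 0.42, edgeR adjusted p = 0.858). TYMS, the thymidylate synthase, had the same shape, at 25.4 and 11.8 CPM in WT and 14.0 in both leptin overexpression libraries. The 2 WT values differed 2.16-fold, so the leptin overexpression values lay inside the WT range.

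MCM2 to MCM7 form the ring-shaped helicase that unwinds DNA at the replication fork. In WT replicate 1 all 6 subunits were at their highest. MCM7 (ENSSSCG00000032180) was the most abundant per length, at 31.4, 16.7, 15.3 and 9.66 FPKM. MCM7 CPM was 67.5 and 48.1 in WT against 47.5 and 34.4 under leptin overexpression, and it was the only subunit with both leptin overexpression libraries below both WT libraries. Its log2 fold change was -0.50 (SE 0.38, edgeR adjusted p = 0.660), and 1 of its 4 expected counts was not a whole number, as an estimate that divides reads among similar sequences can be. MCM6 stood at 74.0 and 50.5 in WT against 68.9 and 68.6 under leptin overexpression, with the leptin overexpression libraries between the WT libraries. The other 4 subunits overlapped between groups as well. Over the 6 the median log2 fold change was -0.20, and the highest subunit was 3.03, 3.99, 2.67 and 2.92 times the lowest in FPKM within each library.

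**Figure D2:**
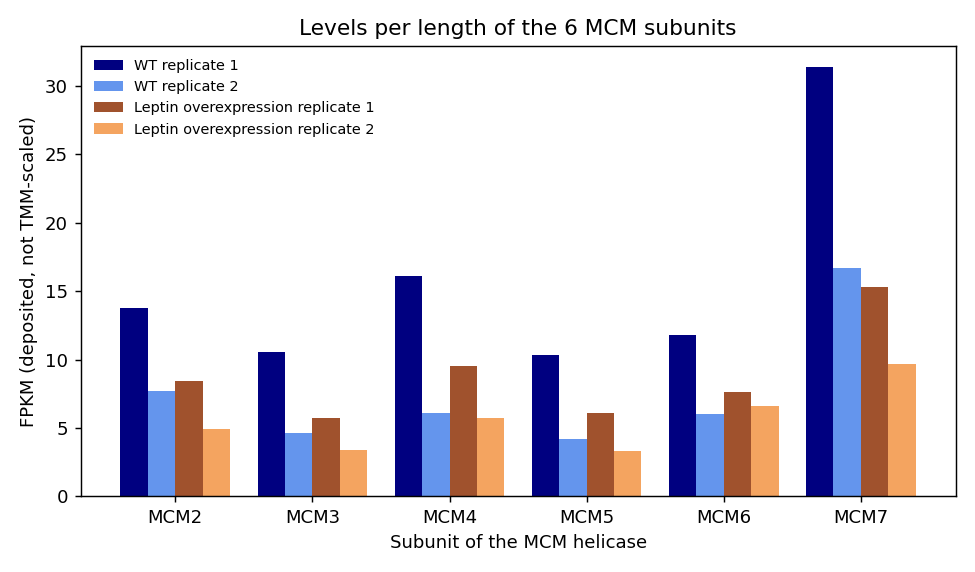
Deposited FPKM (not TMM-scaled) of the 6 subunits of the MCM helicase, with 1 bar per library. WT replicate 1 has the tallest bar for each subunit, and MCM7 stands above the other subunits in all 4 libraries (31.4, 16.7, 15.3 and 9.66 FPKM).

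PCNA (ENSSSCG00000030642), the clamp that holds DNA polymerase on its template, went the other way from most of the list. It stood at 97.7 and 75.2 CPM in WT against 108 and 121 under leptin overexpression, with both leptin overexpression libraries above both WT libraries. The log2 fold change was 0.40 (SE 0.37, edgeR adjusted p = 0.711), and on the FPKM scale, which is not corrected for composition, the log2 difference of PCNA was -0.01. PCNA, TYMS and GINS2 also had expected counts that were not whole in at least 1 library, so a division of their reads with similar genes is possible and their levels are uncertain to that extent.

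GINS2 (ENSSSCG00000040386), a subunit of the complex that joins the MCM ring to the polymerases, was at 14.2 and 8.23 CPM in WT against 7.70 and 6.20 under leptin overexpression. With MCM7 it made up the 2 replication genes whose leptin overexpression libraries both lay below WT, and its log2 fold change was -0.69 (SE 0.48, edgeR adjusted p = 0.641). The 2 genes were 18.2% of the 11, beside 22.9% of all tested genes. CDC6, which loads the MCM ring on DNA, had the lowest mean level of the list, 0.52 FPKM, with 2.72 and 3.46 CPM in WT against 2.87 and 1.49 under leptin overexpression.

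Of the 11 replication genes, 9 had a log2 fold change below 0 and 2 above, with a median of -0.24. That sign rested on 1 library: without WT replicate 1 the median was 0.23. Without WT replicate 2 or leptin overexpression replicate 1 it was -0.57 and -0.53, and without leptin overexpression replicate 2 it was -0.02. Within WT, replicate 1 exceeded replicate 2 by a median of 1.69-fold in CPM over these 11 genes. This gap was not particular to them: the median was 1.31-fold over the 14 mitosis genes. It was 1.45-fold and 1.39-fold over the other replication and other mitosis genes described below. Over all tested genes the median log2 gap was 0.02.

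Markers of other cells also differed between the WT libraries. The summed level of 6 oocyte genes was 112 CPM in WT replicate 1, 20.3 in WT replicate 2 and 18.9 and 21.1 in leptin overexpression. DAZL was at 0 in all 4 libraries, while BMP15, an oocyte growth factor, was at 26.0 CPM in WT replicate 1 and at 1.18 to 2.24 in the rest. For 6 genes of epithelium and oviduct the sum was 513 and 269 CPM in WT against 6.01 and 67.8 under leptin overexpression. KRT18 and FOXJ1 were at 0 in leptin overexpression replicate 1, and OVGP1 made up 316 and 183 CPM of the WT sums. Of the 6 genes, 5 had a log2 fold change below 0. EPCAM had 0.52, at 33.8 and 7.76 CPM in WT against 2.55 and 57.1 under leptin overexpression. Luteal genes, 6 listed, summed to 17252 CPM in WT replicate 1 and 34762 to 40158 in the other 3 libraries. Granulosa genes, 7 listed, summed to 647 and 590 CPM in WT against 566 and 349 under leptin overexpression. That sum merges genes with different orders of the libraries. INHA was at 565, 300, 253 and 137 CPM (log2 fold change -1.15), and CYP19A1 at 9.21, 197, 197 and 161 (0.80). Of the 7 genes, 4 had a log2 fold change below 0. The sums of the other lists, in the order of libraries above, were 2112, 2788, 2647 and 1583 CPM for theca and stroma, 682, 1259, 837 and 388 for endothelium, and 184, 175, 119 and 123 for macrophages. The theca and stroma sum likewise merges CYP17A1 (157, 1700, 836 and 337 CPM) with COL1A1 (1306, 649, 1288 and 719 CPM). Lymphocyte genes summed to 45.0, 77.2, 26.9 and 29.6 CPM and erythroid genes to 150, 306, 233 and 74.1. In the 9 marker lists edgeR called 0 genes, while DESeq2 called 5, all with lower values in leptin overexpression: OVGP1 (adjusted p = 8.27e-06), KRT8 (2.52e-08), CDH1 (1.09e-07), KRT18 (0.00668) and, among lymphocyte genes, JCHAIN (0.00204). Their part in the levels of the members was not tested.

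The 14 mitosis genes leaned to higher values in leptin overexpression, with a median log2 fold change of 0.33, 10 above 0 and 4 below, but on log2(FPKM + 1), which has no factor for composition, their median was -0.16 and that of all tested genes -0.30. In 6 of the 14 (42.9%) both leptin overexpression libraries were above both WT libraries, and in 0 both were below, beside 22.2% and 22.9% of all tested genes. WT replicate 1 was the highest library for 3 of the 14 (21.4%), beside 81.8% of the 11 replication genes and 28.5% of all tested genes. Among the other replication and other mitosis genes described below it was the highest for 48.9% and 35.4%.

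TOP2A (ENSSSCG00000017473), the topoisomerase that untangles DNA before chromosomes separate, had the smallest p of all members. It stood at 32.0 and 28.9 CPM in WT against 53.1 and 69.1 under leptin overexpression, and the gap between groups was wider than that within either group. The log2 fold change was 1.00 (SE 0.36), with an unadjusted edgeR p of 0.0209 and an adjusted p of 0.435. On the FPKM scale the groups did not overlap either, at 7.53, 5.09, 8.66 and 9.84, but the log2 difference on log2(FPKM + 1) was 0.51. The other mitosis genes matched by symbol and without overlap in CPM (BIRC5, CCNB1, CDK1, TPX2 and UBE2C) did overlap in FPKM.

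BIRC5 (ENSSSCG00000040486), survivin, a subunit of the chromosomal passenger complex, was at 11.9 and 9.19 CPM in WT against 18.3 and 16.2 under leptin overexpression (log2 fold change of 0.71 with SE 0.41, edgeR adjusted p = 0.600). AURKB, the kinase of that complex, did not move with it, at 7.39 and 8.77 CPM in WT against 11.1 and 5.15 under leptin overexpression. The leptin overexpression libraries were thus the highest and the lowest for AURKB. CCNB1 (ENSSSCG00000029326), cyclin B1, was at 19.6 and 15.6 CPM in WT against 24.7 and 24.4 under leptin overexpression, without overlap (log2 fold change of 0.48 with SE 0.38, edgeR adjusted p = 0.673). CCNB2, cyclin B2, was at 10.2 and 6.33 CPM in WT against 5.03 and 6.65 under leptin overexpression, with WT replicate 2 inside the leptin overexpression range. CDK1, the partner of both B cyclins, stood at 11.8 and 10.3 CPM in WT against 15.1 and 13.4 under leptin overexpression, again without overlap.

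UBE2C (ENSSSCG00000007423) and CDC20 (ENSSSCG00000003949), an enzyme and an activator of the ubiquitin ligase that ends mitosis, had the highest mean FPKM of the 14. UBE2C was at 25.3, 18.8, 24.9 and 16.7 FPKM, and CDC20 at 14.1, 11.5, 14.7 and 6.97. In CPM, UBE2C stood at 15.8 in both WT libraries and at 22.5 and 17.3 in leptin overexpression (log2 fold change of 0.33 with SE 0.39, edgeR adjusted p = 0.778). For CDC20 leptin overexpression replicate 1 was the highest library, at 27.2 CPM, and leptin overexpression replicate 2 the lowest, at 14.8. Its WT libraries lay between them, at 18.1 and 19.8 CPM, and its log2 fold change was 0.15 (SE 0.43, edgeR adjusted p = 0.914). PLK1, the polo-like kinase, had the same order of libraries in leptin overexpression, at 14.5 and 5.60 CPM around WT values of 12.7 and 9.13.

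Several spindle and kinetochore genes varied widely within a group. CENPF, a large kinetochore protein, was at 25.5 and 8.59 CPM in WT, a 2.97-fold gap, and at 18.1 and 25.8 in leptin overexpression. KIF11 (ENSSSCG00000010471), the kinesin that pushes spindle poles apart, was at 13.3 and 8.41 CPM in WT against 11.4 and 23.6 under leptin overexpression, so only leptin overexpression replicate 2 was above WT (log2 fold change of 0.68 with SE 0.50, edgeR adjusted p = 0.650). TPX2, which organises spindle microtubules, was at 28.7 and 20.9 CPM in WT against 31.7 and 30.9 under leptin overexpression. BUB1, a kinase of the spindle checkpoint, and KIF20A, a kinesin of the central spindle, had nearly equal group means, with 9.57 and 7.22 CPM against 8.23 and 8.37 for BUB1, and 25.3 and 17.8 against 23.0 and 19.0 for KIF20A.

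**Figure D3:**
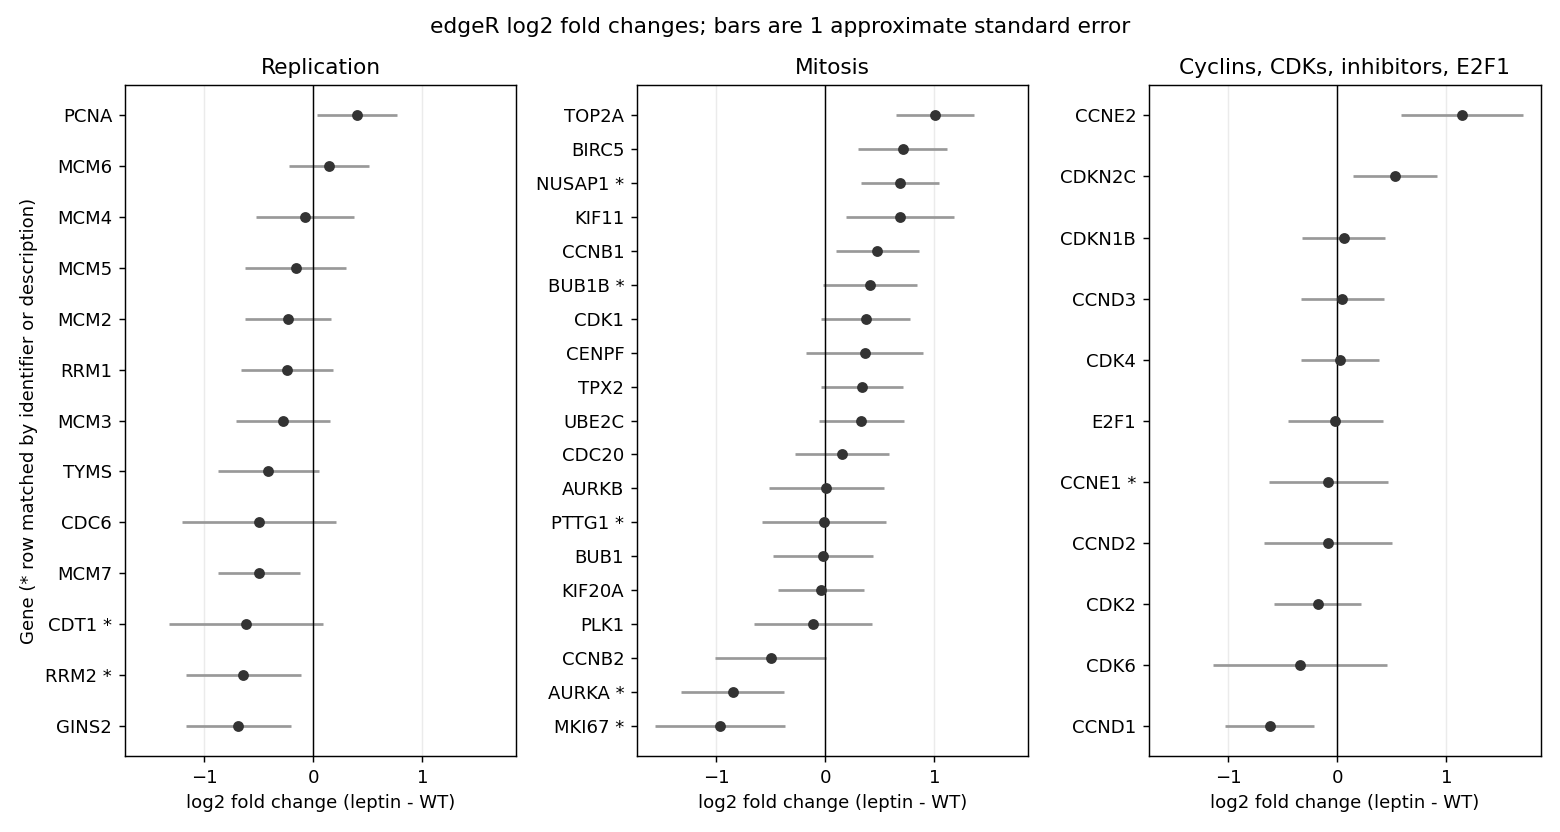
Log2 fold changes (leptin overexpression minus WT) from edgeR for the 43 members with a row, in 3 panels by role, with bars of 1 approximate standard error. Most replication genes lie left of 0 (9 of the 11 matched by symbol) and most mitosis genes right of it (10 of the 14 matched by symbol), and none passed the threshold.

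Replication and mitosis genes were then set against each other within each library, which removes any scaling factor common to the library. Mean log2 CPM of the 11 replication genes exceeded that of the 14 mitosis genes by 1.04 and 0.78 in WT (mean 0.91 ± 0.18, SD, n = 2) and by 0.56 and 0.34 in leptin overexpression (0.45 ± 0.16, SD, n = 2). The leptin overexpression libraries were both below the WT libraries, and the difference between genotypes was -0.46. With each library left out in turn it ran from -0.59 to -0.33. Its sign could not change there, because the groups did not overlap. With the rows matched by identifier included the difference was -0.39. This is a description with no test, since the members were chosen with earlier results of these data known. An exact permutation of 2 against 2 libraries gives no two-sided p under 0.333.

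The replication and mitosis lists of members did not move together across the libraries. Relative to its own mean over the 4 libraries, the replication list stood at 0.42 and -0.22 in WT against 0.08 and -0.28 under leptin overexpression on the log2 CPM scale. The mitosis list stood at 0.06 and -0.32 in WT against 0.20 and 0.06 under leptin overexpression. Both lists were therefore low in WT replicate 2, and the replication list was the one well above its mean in WT replicate 1. Leptin overexpression replicate 2 was low for replication and near the mean for mitosis. The mean over all tested genes moved less, between -0.04 and 0.05. The other replication and other mitosis genes described below moved nearly together. On the same scale they stood at 0.20, -0.34, 0.05 and 0.09 for replication and at 0.17, -0.41, 0.12 and 0.12 for mitosis.

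**Figure D4:**
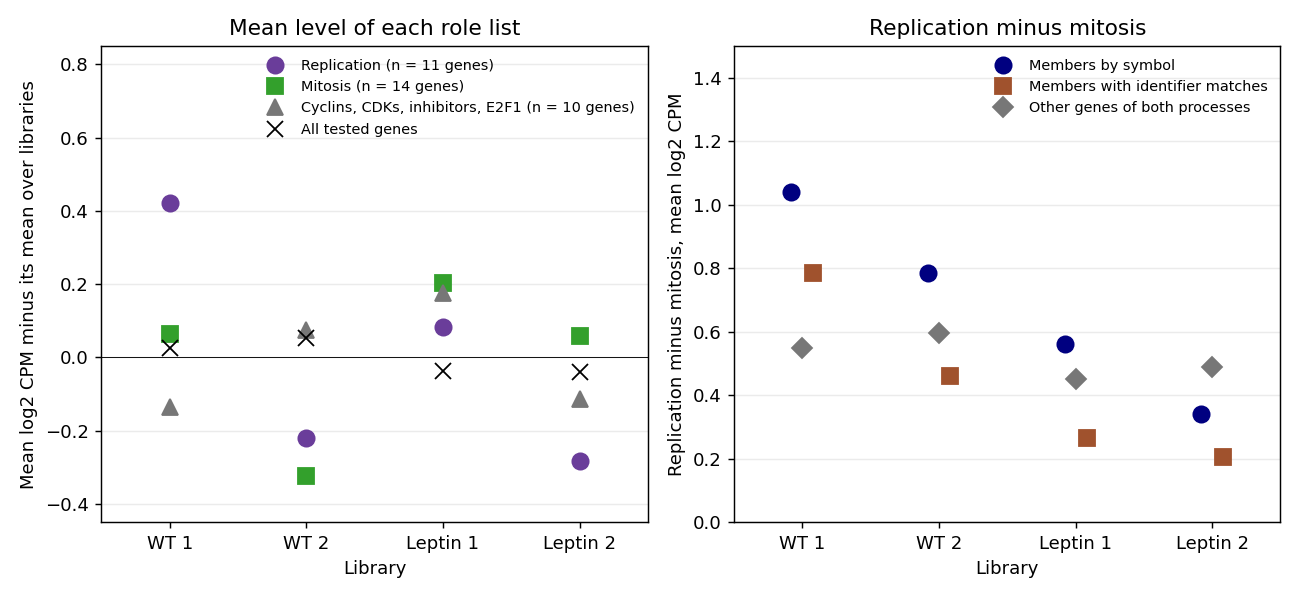
Left, mean log2 CPM of each role list in each library minus its mean over the 4 libraries, with the mean over all tested genes as crosses. Right, mean log2 CPM of replication genes minus that of mitosis genes in each library, where the members run from 1.04 in WT replicate 1 to 0.34 in leptin overexpression replicate 2 and the other genes of both processes stay between 0.45 and 0.60.

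The same comparison in other genes of both processes gave a smaller difference. For 45 of 47 other replication genes and 48 of 50 other mitosis genes that were tested, the gap in mean log2 CPM was 0.55 and 0.60 in WT against 0.45 and 0.49 under leptin overexpression, a difference of -0.10. Among the 45 other replication genes 30 had a log2 fold change above 0 and 15 below, with a median of 0.10, so the lean below 0 of the 11 members did not extend to them. Both leptin overexpression libraries were above WT in 8 of the 45 (17.8%) and below in 3 (6.67%), beside 22.2% and 22.9% of all tested genes. Their most abundant genes per length were RPA3, a subunit of the single-strand binding protein (37.9, 51.3, 52.2 and 75.0 CPM), and RFC2, a subunit of the clamp loader (62.9, 42.0, 40.2 and 45.0 CPM). Their log2 fold changes were 0.51 (SE 0.37, edgeR adjusted p = 0.653) for RPA3 and -0.30 (SE 0.37, edgeR adjusted p = 0.788) for RFC2. ORC6, of the origin recognition complex, had an unadjusted edgeR p under 0.05 (log2 fold change 1.14, adjusted p = 0.474), and 0 of the 45 were called.

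Of the 48 other mitosis genes, 30 were above 0 and 18 below, with a median of 0.17, and leptin overexpression was above WT without overlap in 16 (33.3%) and below in 1 (2.08%), beside the same 22.2% and 22.9%. The 2 most abundant were CKS2, a CDK subunit, at 19.2, 18.3, 30.7 and 26.0 CPM, and BUB3, of the spindle checkpoint, at 59.7, 48.4, 58.5 and 66.6. Log2 fold changes were 0.60 (SE 0.37, edgeR adjusted p = 0.607) for CKS2 and 0.21 (SE 0.35, edgeR adjusted p = 0.847) for BUB3. CENPE, the kinetochore kinesin, and MAD2L1, of the spindle checkpoint, had unadjusted edgeR p under 0.05, with log2 fold changes of 1.31 and 0.97 (adjusted p = 0.490 and 0.529). ORC6, CENPE and MAD2L1 were chosen after their values were seen. None of the 48 was called.

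The most abundant members per length were CDKs and a D cyclin. CDK4 (ENSSSCG00000025092), the kinase bound by D cyclins, had the highest mean, at 77.3, 45.5, 46.8 and 44.2 FPKM. In CPM it stood at 96.0 and 75.7 in WT against 84.0 and 90.7 under leptin overexpression, inside the WT range (log2 fold change of 0.02 with SE 0.36, edgeR adjusted p = 0.984). CDK6, which does the same work, was the least abundant of the list, with a mean of 0.84 FPKM. Both replicate 1 libraries were higher for CDK6 (5.90 and 4.70 CPM) than both replicate 2 libraries (1.97 and 1.49 CPM).

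CDK2 (ENSSSCG00000037597), the partner of cyclin E, followed CDK4 per length at 63.6, 52.8, 49.4 and 29.9 FPKM. Its CPM was 167 and 188 in WT against 186 and 128 under leptin overexpression (log2 fold change of -0.18 with SE 0.40, edgeR adjusted p = 0.885), with leptin overexpression replicate 1 inside the WT range and replicate 2 below it. CDK2, CCND3 and CCNE2 had expected counts that were not whole in at least 1 library.

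Of the D cyclins, CCND3 (ENSSSCG00000032284) dominated. It held 72.5% and 68.6% of the FPKM summed over the 3 D cyclins in WT against 75.1% and 79.6% under leptin overexpression. Its CPM of 64.2, 98.8, 88.9 and 79.2 gave a log2 fold change of 0.05 (SE 0.38, edgeR adjusted p = 0.974). CCND1 (ENSSSCG00000037900) was at 40.4 and 72.7 CPM in WT against 41.0 and 32.4 under leptin overexpression, so WT replicate 2 alone stood above the rest (log2 fold change of -0.62 with SE 0.40, edgeR adjusted p = 0.617). CCND2 was at 5.99 and 14.1 CPM in WT against 13.0 and 5.90 under leptin overexpression, with 1 library of each genotype high and 1 low.

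CCNE2 (ENSSSCG00000006095), cyclin E2, had the widest log2 fold change of the 35 members, 1.14 (SE 0.56, edgeR adjusted p = 0.564). It was low, at 2.90 and 5.31 CPM in WT against 6.99 and 11.1 under leptin overexpression, with no overlap. CDKN2C (ENSSSCG00000003876), an inhibitor of CDK4 and CDK6, was the other member of this list without overlap, at 15.9 and 21.3 CPM in WT against 28.7 and 24.9 under leptin overexpression (log2 fold change of 0.53 with SE 0.38, edgeR adjusted p = 0.650). CCNE2 and CDKN2C were 20% of the 10 genes of the list, beside 22.2% of all tested genes. CDKN1B, which inhibits cyclin E and CDK2, was at 25.8 and 25.9 CPM in WT against 22.1 and 31.7 under leptin overexpression, around the WT values. E2F1 stood at 10.4 and 9.13 CPM in WT against 10.4 and 8.81 under leptin overexpression. Over the 10 genes of this list the median log2 fold change was 0.00, with 5 above and 5 below.

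The wider list of cell cycle control, 37 of 40 genes tested, held a wider log2 fold change than any of the members or the other replication and mitosis genes. CCNG1, cyclin G1, a target of the p53 tumour suppressor, was at 466 and 272 CPM in WT against 816 and 2411 under leptin overexpression (log2 fold change of 2.13 with SE 0.64). DESeq2 called CCNG1 (adjusted p = 0.00651), and edgeR did not (adjusted p = 0.340). CDKN1A, a CDK inhibitor and also a p53 target, was at 103 and 224 CPM in WT against 142 and 119 under leptin overexpression, inside the WT range (log2 fold change of -0.32 with SE 0.46, edgeR adjusted p = 0.821). CDK7, CHEK1, GADD45A and GADD45B had unadjusted edgeR p under 0.05, named after their values were seen, with log2 fold changes of 1.36, 1.06, 1.45 and 1.36 and edgeR adjusted p of 0.266 to 0.493. CDK7 activates other CDKs, CHEK1 halts the cycle after DNA damage, and the GADD45 genes respond to stress. Expected counts of CDK7 and CHEK1 were not whole. In all, 13 of the 37 (35.1%) were above WT without overlap and 4 (10.8%) below, beside 22.2% and 22.9% of all tested genes, with a median log2 fold change of 0.16, and edgeR called 0.

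Of the 8 members matched by identifier or description, 6 had a log2 fold change below 0. MKI67 (ENSSSCG00000026302), the proliferation marker that coats mitotic chromosomes, was at 61.2 and 44.8 CPM in WT against 43.2 and 11.0 under leptin overexpression. The groups did not overlap, but leptin overexpression replicate 1 lay close to WT replicate 2 and the low value was that of leptin overexpression replicate 2. Its log2 fold change was -0.97 (SE 0.60, edgeR adjusted p = 0.607). AURKA, the spindle pole kinase activated by TPX2, was at 34.3 and 15.6 CPM in WT against 15.6 and 12.1 under leptin overexpression (log2 fold change of -0.85 with SE 0.47, edgeR adjusted p = 0.590), with WT replicate 2 and leptin overexpression replicate 1 all but equal. RRM2, the small subunit of ribonucleotide reductase, was at 59.0 and 20.1 CPM in WT, a 2.94-fold gap, and at 20.9 and 29.9 in leptin overexpression, inside the WT range.

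NUSAP1, a spindle-associated protein, had the opposite direction to MKI67, at 24.0 and 26.0 CPM in WT against 37.7 and 42.7 under leptin overexpression (log2 fold change of 0.68 with SE 0.36, edgeR adjusted p = 0.575). Its groups did not overlap, and the WT libraries lay close together. BUB1B, of the spindle checkpoint, was at 11.1 and 8.06 CPM in WT against 13.2 and 12.3 under leptin overexpression. PTTG1, securin, was at 9.16 and 6.21 CPM in WT against 10.9 and 4.33 under leptin overexpression, with the leptin overexpression libraries the highest and the lowest, as for CDC20 and PLK1. CDT1, which loads the MCM ring with CDC6, was at 5.63, 2.74, 3.72 and 1.72 CPM, and CCNE1, cyclin E1, at 5.26, 4.59, 4.44 and 4.86. With these rows included, the median log2 fold change was -0.28 over 13 replication genes (11 below 0), 0.33 over 19 mitosis genes (12 above 0) and -0.02 over 11 control genes, and 0 of the 43 were called. Expected counts of AURKA, NUSAP1 and CCNE1 were not whole in at least 1 library.

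**Figure D5:**
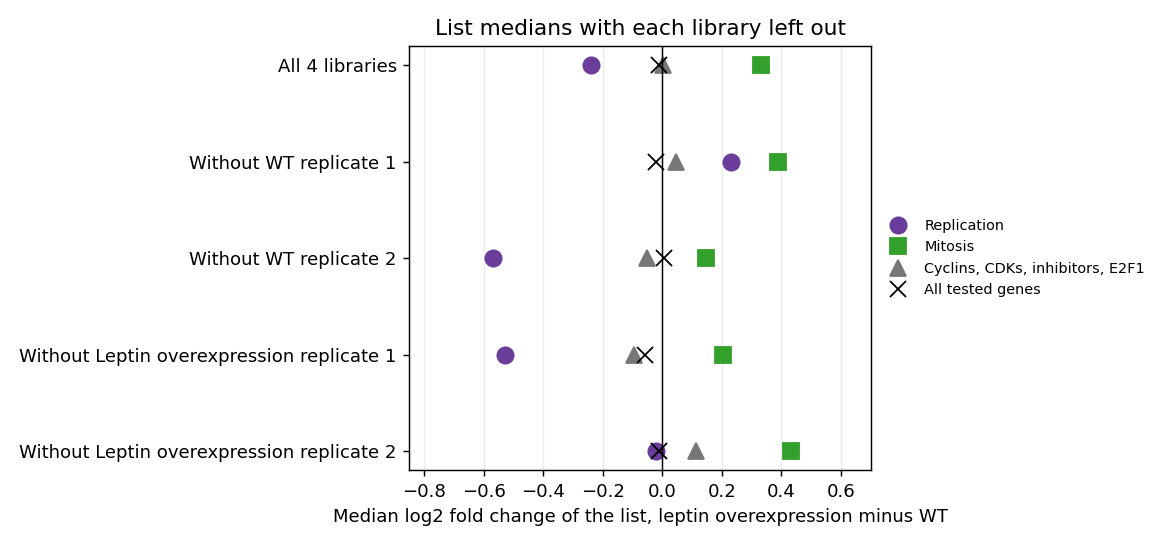
Median log2 fold change (leptin overexpression minus WT) of each role list and of all tested genes, with all 4 libraries and with each library left out. The replication median turns from -0.24 to 0.23 without WT replicate 1, while the mitosis median stays above 0, between 0.15 and 0.43.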

How the data were processed

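The deposited table gave expected counts per gene, estimated counts that need not be whole, with no scaling to depth, per the file headers. It also gave the authors' FPKM, scaled to transcript length and fragment number, per the file headers. Tools named, without roles, in the submitters' processing notes are RSEM, HISAT2, Bowtie2 2.2.8, StringTie 1.3.1, fastp 0.18.0, edgeR 3.32.0 and DESeq2. Genome build and use of strand were not given in the sources used here: no coordinates are printed, and overlapping and antisense genes may share reads. The control columns were taken as WT, by number.

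Expected counts were rounded. Genes kept by filterByExpr (13937; 8372 removed) were TMM-scaled and compared with the quasi-likelihood test of edgeR 4.0.16 (R 4.3.3, limma 3.58.1) in a robust fit on genotype alone, which left 2 residual degrees of freedom and used Benjamini-Hochberg adjustment over all tested genes and a threshold of 0.05. The SE is approximate, the absolute log2 fold change over the square root of F. Log2 CPM used a prior count of 2. A count of 0 allows up to 3 counts, which come to 0.136 to 0.224 CPM, counting error only. The procedure was run on simulated data with the same dispersion for all genes and the same expected composition within a group. That run cannot show how the procedure handles a library that differs in composition, as WT replicate 1 did.

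The members and lists were chosen with earlier results of these data known. Fold changes and tests were to be printed, per role, for the 3 members of highest mean FPKM and the 3 of smallest p, and for wider lists the 2 genes of highest mean FPKM. Tests of MKI67, AURKA and NUSAP1, matched by identifier or description, and of wider genes beyond those 2 per list were printed after their values were seen. Alternatives tried were each library left out, the replicate number as a block, upper-quartile and RLE factors, 1 CPM in 2 libraries, no filter, limma-voom, DESeq2 1.42.0, and limma-trend with an FPKM pseudocount of 1 or 0.1. Adding the 8 members matched by identifier was chosen after seeing the data.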

Additional observations from a re-analysis of the deposited data

How the results depend on the processing

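No alternative called a member: 0 passed under each of the settings run. The number of genes called over the whole table, 4 with edgeR, was 11 with upper-quartile factors, 252 with no filter, 323 with DESeq2, 1 with limma-voom, 1 with limma-trend on log2(FPKM + 1) or log2(FPKM + 0.1), 18 on log2(FPKM + 1) with no filter, and 0 to 603 with a library left out. A fit without a library takes its spread from the group that keeps 2, and the lone sample is assumed to vary like that group. With the replicate number as a block, which leaves 1 residual degree of freedom, 23 genes were called. Same-numbered deviations correlated at -0.0995 over 13937 genes. With 2 libraries per group, this value cannot show whether the numbers pair the samples.

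The FPKM scale moved the median of all tested genes to -0.30 (pseudocount 1) or -0.40 (pseudocount 0.1), and upper-quartile factors moved it to -0.11. On those FPKM scales the replication median was -0.52 and -0.67, the mitosis median -0.16 and -0.18, and the control median -0.35 and -0.41. Relative to all tested genes, the replication median stayed lower (-0.22 and -0.26) and the mitosis median higher (0.14 and 0.23). With a library left out, the replication median ran from -0.57 to 0.23, the mitosis median from 0.15 to 0.43, the control median from -0.09 to 0.11 and the replication minus mitosis difference from -0.59 to -0.33.

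Of 224 values of the 16 named members under alternatives, 24 changed sign, in each case without passing the threshold. On log2(FPKM + 1), with or without the filter, PCNA was -0.0087, UBE2C -0.095, CDC20 -0.30, CDK4 -0.38 and CCND3 -0.35, and with a pseudocount of 0.1 they were -0.0061, -0.099, -0.33, -0.38 and -0.36. Upper-quartile factors gave -0.091 for CDK4 and -0.043 for CCND3. With a library left out, RRM1 ran from -0.71 to 0.36, CDC20 from -0.35 to 0.53, CDK4 from -0.18 to 0.19, CDK2 from -0.48 to 0.065 and CCND3 from -0.25 to 0.35. The scale accounts for the shift on FPKM by construction, as it holds no TMM factor, and the cause of the other changes was not tested. The members of lowest level, CDC6 and CDK6, had as few as 20 counts in a library.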

Other observations

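Pairs of members that act together, or that mark the same cells, did not keep 1 ratio across the libraries. These pairs were chosen after their values were seen, and the ratios are of deposited FPKM, in which a factor common to a library cancels. TOP2A to MKI67, both markers of dividing cells, stood at 1.03 and 1.28 in WT against 2.44 and 12.5 under leptin overexpression. NUSAP1 to MKI67 had the same order, at 1.16 and 1.72 against 2.59 and 11.5. AURKA to its activator TPX2 ran the other way, at 1.61 and 0.983 against 0.649 and 0.518. The E cyclins, CCNE2 to CCNE1, gave 0.470 and 0.982 against 1.35 and 2.04. For the subunits of ribonucleotide reductase, RRM1 to RRM2, the groups overlapped, at 1.09 and 1.43 against 2.46 and 1.37.

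Low MKI67 beside high TOP2A was a feature of leptin overexpression replicate 2, where MKI67 was at 0.79 FPKM and TOP2A at 9.84, while leptin overexpression replicate 1 had 3.55 and 8.66. The MKI67 row was matched by its description, and NUSAP1 and AURKA had expected counts that were not whole in at least 1 library. The part of either in these ratios was not tested.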
